A study of Mus musculus with 4 samples.

Results

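The genes described here are those of the cytosolic ribosome, measured on 4 Affymetrix arrays of mouse B lymphocytes. They were taken by symbol: every probe set that maps to exactly 1 gene symbol beginning with Rpl or Rps and a number, together with Rplp0, Rplp1, Rplp2 and Rpsa, but without pseudogene symbols and the S6 kinases. This gave 110 probe sets of 69 genes, out of 22180 genes with a probe set of their own. Each gene is represented by its brightest probe set. Of the 69 genes, 58 encode one of 79 canonical subunit proteins (35 of the large 60S subunit and 23 of the small 40S subunit), and 11 are paralogues or carry a similar name. Another 21 canonical proteins, among them Rpl10 and Rpl12, are not among the members. The 4 groups held 1 array each: Tilcara stimulated, WT stimulated, Tilcara non-stimulated and WT non-stimulated. Tilcara (Til) is a mutant of PKCbeta, a kinase that carries signals from the B cell receptor, and all mice had the C57BL/6 background. Cells from spleens, thymi and lymph nodes were stained for B220 (CD45R) and sorted. The stimulated cells received the phorbol ester PMA at 10 ng/mL, which activates protein kinase C directly, and a calcium ionophore (A23187) at 1 µM for 4 hours. No source used here gives the ages of the mice or how many stood behind each array.

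A cytosolic ribosome joins a 60S and a 40S subunit, each built in the nucleolus from ribosomal RNA and one copy of nearly every ribosomal protein. The mRNAs of these proteins are among the most abundant of a cell. Most begin with a terminal oligopyrimidine (TOP) tract, a C at the start followed by C and T bases, through which the kinase mTOR and the protein Larp1 set their translation. A resting B cell is small, and after activation it enlarges and makes more ribosomes. Part of the increase in ribosomal protein synthesis is known to come from translation of mRNA already present, which arrays of total RNA do not measure.

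Start windows of 8 genes are shown first, since the TOP tract is known from this gene family and the symbol rule did not use it. Each line gives 15 bases before and 15 bases from the transcription start of RefSeq (GRCm38.p6), and capitals mark a tract of at least 5 pyrimidines that begins with C at the start. Rpl35, Rpl15, Rplp2 and Rps27 hold one, whereas Rpl34, Rpl11, Rpl7l1 and Rps19bp1, which are shown for their increases after stimulation, do not.
Rpl35, chr2:39005117-39005146, minus strand: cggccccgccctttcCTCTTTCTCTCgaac
Rpl15, chr14:18270972-18271001, minus strand: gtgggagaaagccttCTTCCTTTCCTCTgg
Rplp2, chr7:141447636-141447665, plus strand: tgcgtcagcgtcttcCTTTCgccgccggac
Rps27, chr3:90213634-90213663, minus strand: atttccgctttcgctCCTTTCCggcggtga
Rpl34, chr3:130730323-130730352, minus strand: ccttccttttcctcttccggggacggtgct
Rpl11, chr4:136053379-136053408, minus strand: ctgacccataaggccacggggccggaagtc
Rpl7l1, chr17:46782642-46782671, minus strand: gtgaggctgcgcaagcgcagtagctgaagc
Rps19bp1, chr15:80264292-80264321, minus strand: cagggcggaagtagctcgccgcgtgtgggc
Of the 69 genes, 54 had a start window, and 11 of these (20.4%) held a tract at an annotated start, against 813 of 27025 genes of the genome (3.01%). The search counted a tract only at the annotated start itself, so a window without capitals says only that these letters do not stand there. The motif CCGGAAG, the core bound by ETS family factors, was found on either strand within 250 bases before to 50 bases after the start of 23 members (42.6%), against 9.93% of all genes. The E-box CACGTG, bound by Myc, was found in 4 members (7.41%), against 8.09% of all genes.

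Each array gave 41345 log2 signals, of which 23521 belonged to probe sets with 1 symbol. The array medians lay between 3.73 and 3.79 on the log2 scale. With 1 array a group there was no spread between replicates, so differences between single arrays carry no test. The p-values come from 1 limma fit over all 4 arrays, with stimulation and genotype as additive terms, in which the genotypes stand in for samples of a stimulation state. For each gene the fit leaves 1 residual degree of freedom, the difference between the responses of the genotypes. A prior variance drawn from all genes, with 3.46 degrees of freedom, outweighs it. The p-values and SEs therefore rest mostly on that prior, and they measure no spread between replicates. The B cell identity of the samples was seen in 7 measured markers of 9, all above the signal floor in every array. Their median was 8.49 in stimulated and 10.78 in non-stimulated Tilcara cells, and 7.69 in stimulated and 10.64 in non-stimulated WT cells. The array of non-stimulated WT cells stood apart in neutrophil and T cell markers. The summed signal of 8 neutrophil markers was 9.60 (log2) there and between 6.04 and 6.38 in the other arrays. That of T cell markers was 7.40 there and between 6.35 and 6.74 elsewhere. The WT stimulation difference and the genotype difference without stimulation use this array. The Tilcara stimulation difference does not. It uses the array of non-stimulated Tilcara cells, where the summed signal of 7 macrophage markers was 7.01, against 7.65 to 7.86 in the other arrays. NK cell markers moved in both genotypes. Their summed signal was 6.80 in stimulated and 8.22 in non-stimulated Tilcara cells, against 6.84 in stimulated and 8.02 in non-stimulated WT cells. All 6 used fell (limma), as did 6 of the 7 B cell markers, beside 22.8% of all genes. The part of these cells in the results was not tested. In such bulk samples, fewer cells of a type and less RNA per cell cannot be told apart.

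Ribosomal protein genes gave many of the brightest signals on the arrays. Among the 50 genes with the highest mean signal, 21 were members, and among the top 100, 31 were. The 6 members with the highest mean over the 4 arrays were Rplp1 (12.29), a protein of the P stalk that recruits elongation factors, Rpl41 (12.15), Rps18 (12.04), Rpl19 (11.96), Rpl27 (11.93) and Rpl13 (11.93). The 6 lowest were Rpl10l (1.44), Rpl32l (1.52), Rpl3l (3.09), Rpl22l1 (3.25), Rps29 (3.33) and Rps16 (3.59). The first 5 of these stayed below the signal floor of 3.83, the median of all single-symbol signals, in every array. Rpl10l is known as a testis gene and Rpl3l as a gene of skeletal and heart muscle. Rps29 and Rps16, by contrast, encode core proteins of the 40S subunit. Signals of different probe sets are not on 1 scale, so their order is not an order of transcripts. The remaining 64 members passed the floor in at least 1 array and entered the comparisons, as did 12456 genes in all. Of these 64, 5 (Rpl27a, Rpl39l, Rps16, Rps23rg1 and Rps4l) lay below the floor on some arrays and passed only through the higher ones. Signals fell into a bright and a dim part: 38 members had a mean of at least 9 and 31 a mean below it. The dimmest of the bright was Rplp0 (9.21) and the brightest of the dim was Rps10 (8.36). This division at 9 was made after the values had been seen.

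**Figure D1:**
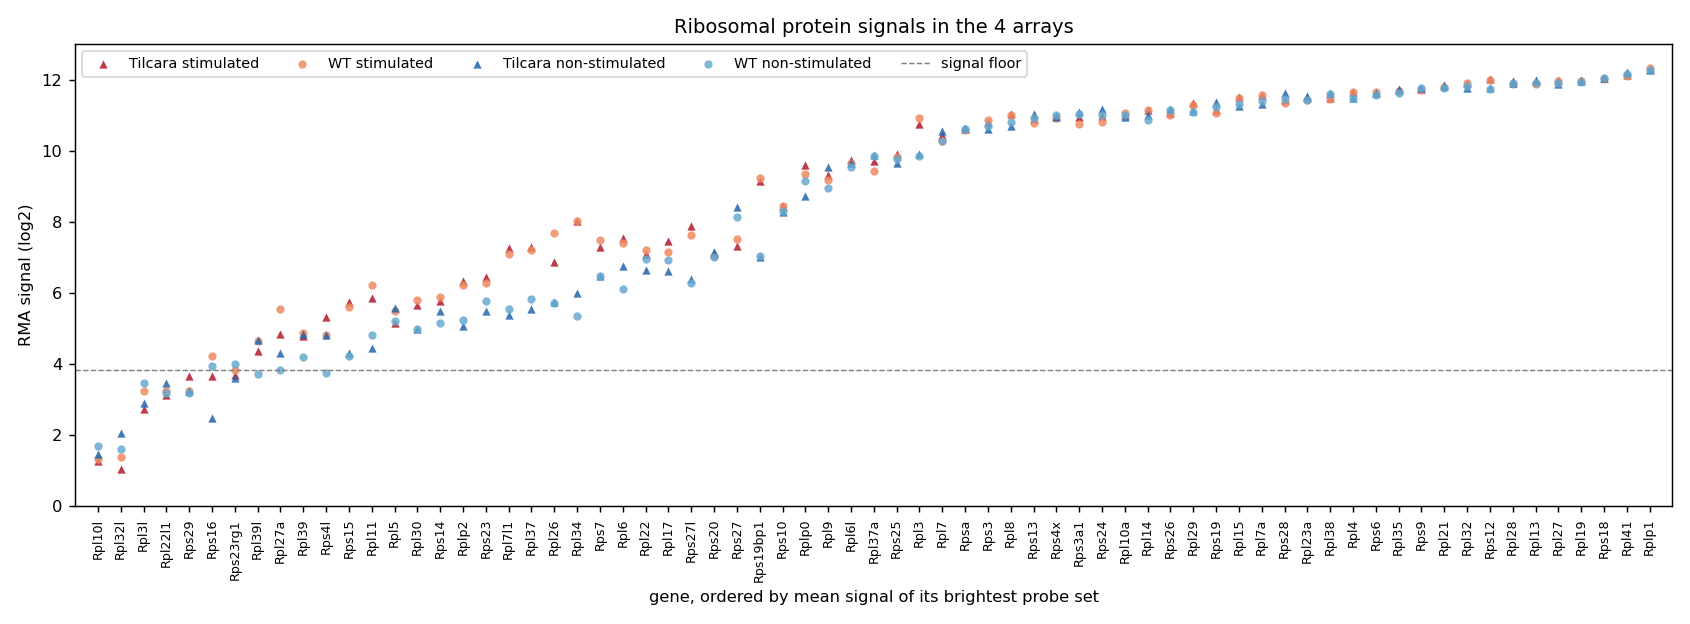
RMA signal (log2) of the brightest probe set of each of the 69 genes on the 4 arrays, ordered by mean signal. Triangles stand for Tilcara and circles for WT, red tones for stimulated and blue tones for non-stimulated cells. The dashed line is the signal floor of 3.83. From Rplp0 (9.21) upward the symbols of the 4 arrays mostly lie on each other, whereas among dimmer genes the red symbols often lie above the blue ones.

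After stimulation the median of the ribosomal protein genes lay close to that of all genes, and members with dimmer probe sets lay above it. The median difference of the 64 members was 0.11 in Tilcara cells and 0.15 in WT cells on the log2 scale, beside 0.04 and 0.03 for all 12456 genes. In Tilcara cells 10 members were at least 2-fold higher after stimulation, as were 11.9% of all genes. In WT cells 12 members were, as were 13.4% of all genes. The 10 include Rps16, whose Tilcara signals both lie below the floor, and the 12 include Rpl27a and Rps4l, whose non-stimulated WT signals do. The members' shares are close to the background. Of decreases there was 1: Rps27 was at least 2-fold lower in Tilcara cells against 14.3% of all genes, and 0 were in WT cells against 15.9%. The sign of the difference was the same in both genotypes for 53 of the 64 members.

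Split by brightness, most bright members lay near 0 and most dim ones above it. Among the 38 members with a mean signal of at least 9, the median difference was 0.01 in Tilcara cells, with a range of −0.21 to 0.88, and 0.04 in WT cells, with a range of −0.44 to 1.06. Among the 26 dimmer members that were used, it was 0.82 in Tilcara cells, with a range of −1.09 to 2.13. In WT cells it was 0.96, with a range of −0.63 to 2.67. Of these 26, 8 in Tilcara and 7 in WT cells lay within 0.5 of 0. The dim members held all 10 that were at least 2-fold higher in Tilcara cells and 11 of the 12 in WT cells, Rpl3 being the other. Among all genes with a mean below 9 the medians were 0.04 in Tilcara and 0.03 in WT cells, and 11.7% were at least 2-fold higher in Tilcara and 13.2% in WT cells. Split instead at the median signal of the members (9.72), the lower part had a median of 0.81 in either genotype, and the upper part of 0.01 in Tilcara and 0.02 in WT cells. Among other genes, the 502 with a mean signal of at least 9 had a median of 0.17 in Tilcara and 0.16 in WT cells. At 11 and above, the 34 other genes had medians of −0.06 in Tilcara and −0.11 in WT cells. As brightness and membership overlap, with 24 members among the 58 genes at 11 and above, they cannot be told apart there.

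**Figure D2:**
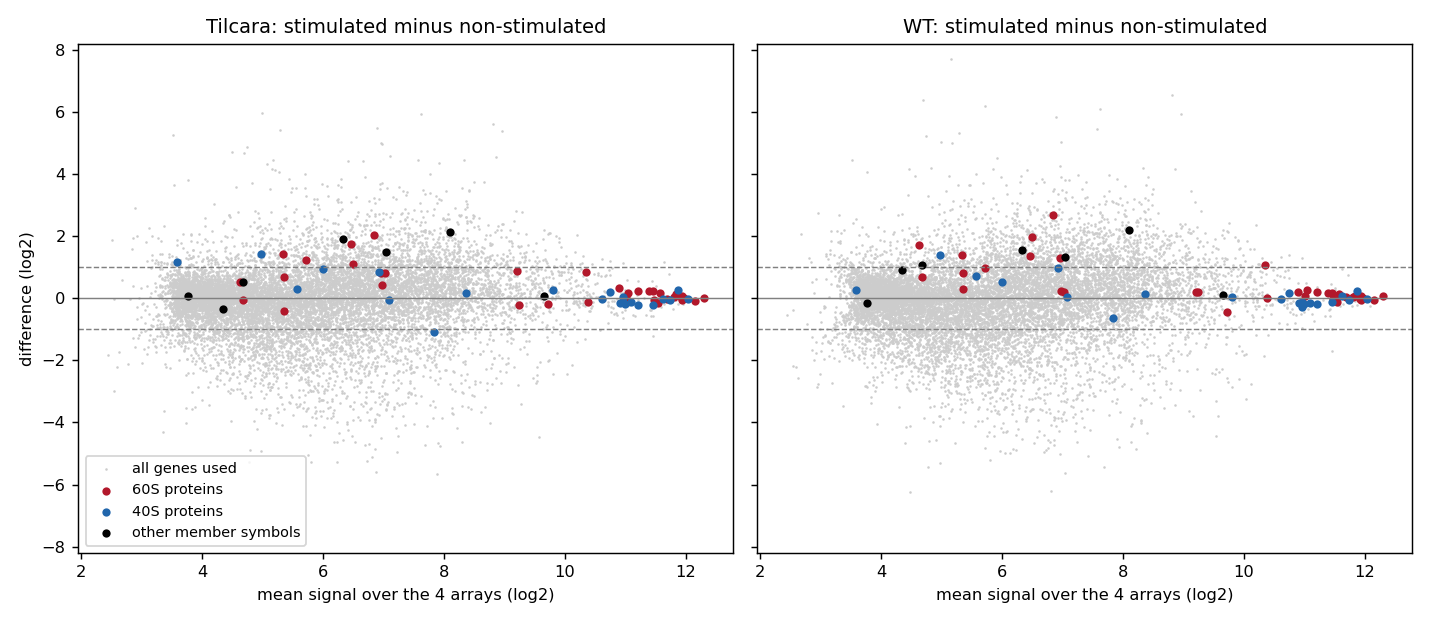
Difference between stimulated and non-stimulated cells (log2, vertical) against mean signal over the 4 arrays (log2, horizontal), in Tilcara cells on the left and WT cells on the right. Grey points are all 12456 genes used, coloured points the 64 ribosomal protein genes, and dashed lines mark 2-fold differences. Members at 9 and above lie close to 0, and of the 26 dimmer members 21 lie above 0 in Tilcara and 24 in WT cells.

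The 60S proteins among the dim members were led by Rpl34 (probe set 17410381). Its signal was 8.02 in stimulated and 5.99 in non-stimulated Tilcara cells, and 8.02 in stimulated and 5.34 in non-stimulated WT cells. Both stimulated arrays thus stood at 1 level, above both non-stimulated ones, by 4.10-fold in Tilcara and 6.38-fold in WT cells. Over both genotypes Rpl34 rose by 2.36 ± 0.21 (log2, SE; limma, adjusted p = 0.0023).
Rpl37 had 7.28 in stimulated and 5.54 in non-stimulated Tilcara cells, against 7.21 in stimulated and 5.83 in non-stimulated WT cells. It rose by 1.56 ± 0.17 (limma, adjusted p = 0.0036), and its stimulated and non-stimulated arrays did not overlap. Rpl26, which lies beside the exit of the peptide tunnel, had 6.86 in stimulated and 5.74 in non-stimulated Tilcara cells, against 7.69 in stimulated and 5.72 in non-stimulated WT cells. It rose by 1.55 ± 0.25 (limma, adjusted p = 0.0096), and its stimulated signal was the lower one in Tilcara cells, by 0.83. Rpl27a had 4.84 in stimulated and 4.31 in non-stimulated Tilcara cells, against 5.55 in stimulated and 3.82, just below the floor, in non-stimulated WT cells. It rose by 1.13 ± 0.32 (limma, adjusted p = 0.0457) and is one of the members that passed the floor only on some arrays. Without the filter on low signals the call was lost (limma, adjusted p = 0.0719). Rpl6 rose by 1.05, Rpl30 by 0.75 and the bright Rpl3, a protein near the peptidyl transferase centre, by 0.95. Of the 12 dim 60S proteins, 8 rose and 0 fell in the limma fit, in which 22.0% of all genes rose and 22.8% fell, and 21.5% and 23.1% of those below 9. Of the 23 bright ones, Rpl3 alone rose and 0 fell, whereas of all 540 genes at 9 and above 179 rose and 86 fell.

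Of the 3 measured proteins of the P stalk, 1 rose on its brightest set. Rplp2, whose start window is shown above, rose by 1.12 ± 0.16 (limma, adjusted p = 0.0069), with 6.33 in stimulated and 5.08 in non-stimulated Tilcara cells and 6.23 in stimulated and 5.24 in non-stimulated WT cells. Rplp1, its partner in the stalk dimers, had 12.29 in stimulated and 12.27 in non-stimulated Tilcara cells, against 12.34 in stimulated and 12.27 in non-stimulated WT cells. Rplp0, which anchors the stalk to the 60S subunit, had 9.60 in stimulated and 8.72 in non-stimulated Tilcara cells, against 9.36 in stimulated and 9.15 in non-stimulated WT cells. Its estimate of 0.54 ± 0.21 missed the threshold (limma, adjusted p = 0.106).
Rpl5 and Rpl11 enter the 60S subunit together with 5S rRNA and, when left over, bind Mdm2, the protein that holds p53 in check. Rpl11 had 5.86 in stimulated and 4.44 in non-stimulated Tilcara cells, against 6.22 in stimulated and 4.82 in non-stimulated WT cells. It rose by 1.41 ± 0.15 (limma, adjusted p = 0.0033). Rpl5 had 5.15 in stimulated and 5.56 in non-stimulated Tilcara cells, against 5.50 in stimulated and 5.21 in non-stimulated WT cells, so that its arrays interleaved.

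Of 22 small subunit proteins used, 3 rose and 1 fell, beside 22.0% of all genes that rose and 22.8% that fell. Rps15, a protein of the 40S head, had 5.74 in stimulated and 4.31 in non-stimulated Tilcara cells, against 5.62 in stimulated and 4.23 in non-stimulated WT cells. It rose by 1.41 ± 0.15 (limma, adjusted p = 0.0033). Rps7 rose by 0.92 ± 0.15 and Rps23, a protein of the decoding centre, by 0.73 ± 0.18 (limma, adjusted p = 0.0101 and 0.0295). Rps27, a zinc finger protein of the 40S platform, was the 1 member that fell. Its signal was 7.32 in stimulated and 8.40 in non-stimulated Tilcara cells, against 7.51 in stimulated and 8.14 in non-stimulated WT cells, and it fell by 0.86 ± 0.18 (limma, adjusted p = 0.0207). The paralogue Rps27l, known as a target of p53, went the other way on its own probe set: it had 7.88 in stimulated and 6.40 in non-stimulated Tilcara cells, against 7.63 in stimulated and 6.29 in non-stimulated WT cells, and rose by 1.42 ± 0.15 (limma, adjusted p = 0.0034). The sequences of such paralogues are alike, and how far probes of one read the other was not tested. Of the 8 dim 40S proteins used, 3 rose and 1 fell. Of the 14 bright ones 0 did either, whereas 179 of all 540 genes at 9 and above rose and 86 fell. On their brightest sets, Rps13, Rps19, Rps24, Rps26, Rps28 and Rps3a1 were lower after stimulation in both genotypes, by 0.11 to 0.29, without passing the threshold. Dimmer sets of Rps19 and Rps28 were higher, by 1.17 and 0.59 in Tilcara and 0.68 and 0.73 in WT cells. So was 1 of the dimmer Rps24 sets, given below. A second Rps26 set differed by −0.31 in Tilcara and 0.16 in WT cells. The dim Rps20 did not rise on its brightest set, but a dimmer one was higher by 1.52 in Tilcara and 1.36 in WT cells.

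Members that are no canonical subunit held some of the largest differences. Rps19bp1 (probe set 17319407), which encodes a protein that binds Rps19 and is no part of the ribosome, had 9.14 in stimulated and 7.01 in non-stimulated Tilcara cells, against 9.23 in stimulated and 7.03 in non-stimulated WT cells. It rose by 2.17 ± 0.15 (limma, adjusted p = 0.0016), the smallest adjusted p among the members, and the genotypes differed by less than 0.1 in either state. Rpl7l1, a relative of Rpl7 that is known in human cells from the assembly of the 60S subunit, had 7.27 in stimulated and 5.37 in non-stimulated Tilcara cells, against 7.11 in stimulated and 5.56 in non-stimulated WT cells. It rose by 1.72 ± 0.17 (limma, adjusted p = 0.0028). Rps4l rose by 0.79 ± 0.20 (limma, adjusted p = 0.0314), a call lost without the filter on low signals (adjusted p = 0.0502). Rpl6l, at a mean of 9.65, differed by 0.09 in Tilcara and 0.10 in WT cells, and Rps23rg1, a retroposed copy of Rps23, by 0.09 in Tilcara and −0.15 in WT cells near the floor. Rpl39l, the testis-enriched paralogue of Rpl39, had 4.35 in stimulated and 4.68 in non-stimulated Tilcara cells, against 4.64 in stimulated and 3.72 in non-stimulated WT cells.

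Across the 64 members, limma called 16 that rose, against 22.0% of all genes, and 1 that fell, against 22.8%. In either direction 17 members were called, against 44.8% of all genes, and 19 had an unadjusted p below 0.05, against 53.1%. The fit sets 1 prior variance for genes of all signals. With a prior that follows signal, the 17 calls were kept and 15 were added. This gave 25 that rose and 7 that fell, against 47.7% of all genes called and 23.7% that rose. The added ones were bright members with small differences: Rpl14, Rpl15, Rpl29, Rpl4, Rpl7a, Rpl8, Rplp0, Rps12 and Rps3 were higher and Rpl37a, Rpl38, Rps19, Rps24, Rps28 and Rps3a1 were lower, by 0.14 to 0.54 in size, but after cyclic loess Rpl4 (−0.05) and Rps3 (−0.01) lay below 0. Bright proteins of both subunits had medians near 0, which were 0.05 in Tilcara and 0.06 in WT cells for 23 proteins of the 60S subunit, and −0.03 in Tilcara and −0.08 in WT cells for 14 of the 40S subunit. These directions hung on the scaling. After cyclic loess, which moves signals along the brightness scale, the 60S medians were −0.13 in Tilcara and −0.15 in WT cells and the 40S medians −0.20 in Tilcara and −0.30 in WT cells, and only 4 of the 38 bright members stayed above 0 in WT cells, where 22 had been. The dim members kept medians of 0.65 in Tilcara and 0.91 in WT cells. So no direction is given for the bright members. The 10 used members with a TOP tract at an annotated start counted 1 that rose (Rplp2), 1 that fell (Rps27) and 8 that did neither, and 7 of the 10 were bright. The other 40 with a window counted 12 that rose and 0 that fell.

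Several genes were read by both a bright and a dim probe set, and there the dim one usually showed the larger difference. For Rpl35, whose TOP tract is shown above, the bright set (17548654) had 11.71 in stimulated and 11.73 in non-stimulated Tilcara cells, against 11.68 in stimulated and 11.63 in non-stimulated WT cells. Its dim set (17384744) had 5.52 in stimulated and 3.72 in non-stimulated Tilcara cells, against 5.62 in stimulated and 3.60 in non-stimulated WT cells. The same gene was thus level on one set and higher by 1.80 in Tilcara and 2.02 in WT cells on the other, where both non-stimulated signals lie below the floor of 3.83, so that these sizes are taken against background. Rpl41 differed by −0.09 in Tilcara and −0.04 in WT cells on a set of mean 12.15, and by 1.23 in Tilcara and 1.42 in WT cells on one of mean 7.75. Rps24 differed by −0.18 in Tilcara and −0.19 in WT cells at 10.99, and by 1.55 in Tilcara and 1.70 in WT cells at 8.13. A further Rps24 set of mean 8.37 differed by −0.13 in Tilcara and 0.06 in WT cells, so a dim signal did not always come with a difference. In all, 16 members had a brightest set of at least 9 and a dimmest set below 9 that passed the floor. The dim set showed the higher difference in both genotypes for 13 of them, with a median gap of 0.71 in Tilcara and 0.90 in WT cells. The dim sets of 2 of the 16, Rpl35 and Rpl7, lay below the floor on some arrays. Among 81 other genes chosen by the same signals, the dim set showed the higher difference in both genotypes for 39. The median gap over these 81 was 0.03 in Tilcara and 0.10 in WT cells. Rpl3 was the opposite case, with 0.84 in Tilcara and 1.06 in WT cells on the set of mean 10.35, and 0.10 in Tilcara and −0.26 in WT cells on the set of mean 4.45. Another Rpl3 set, of mean 7.57, differed by 0.68 in Tilcara and 0.61 in WT cells. With the dimmest set of each gene limma called 29 of 63 members fitted, 28 of which rose, beside 45.5% of all genes called and 22.4% that rose in that setting. With the brightest set it called 17 of 64. No source used here gives the sequence that each set reads, so whether the sets stand for different transcripts of a gene was not tested.

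**Figure D3:**
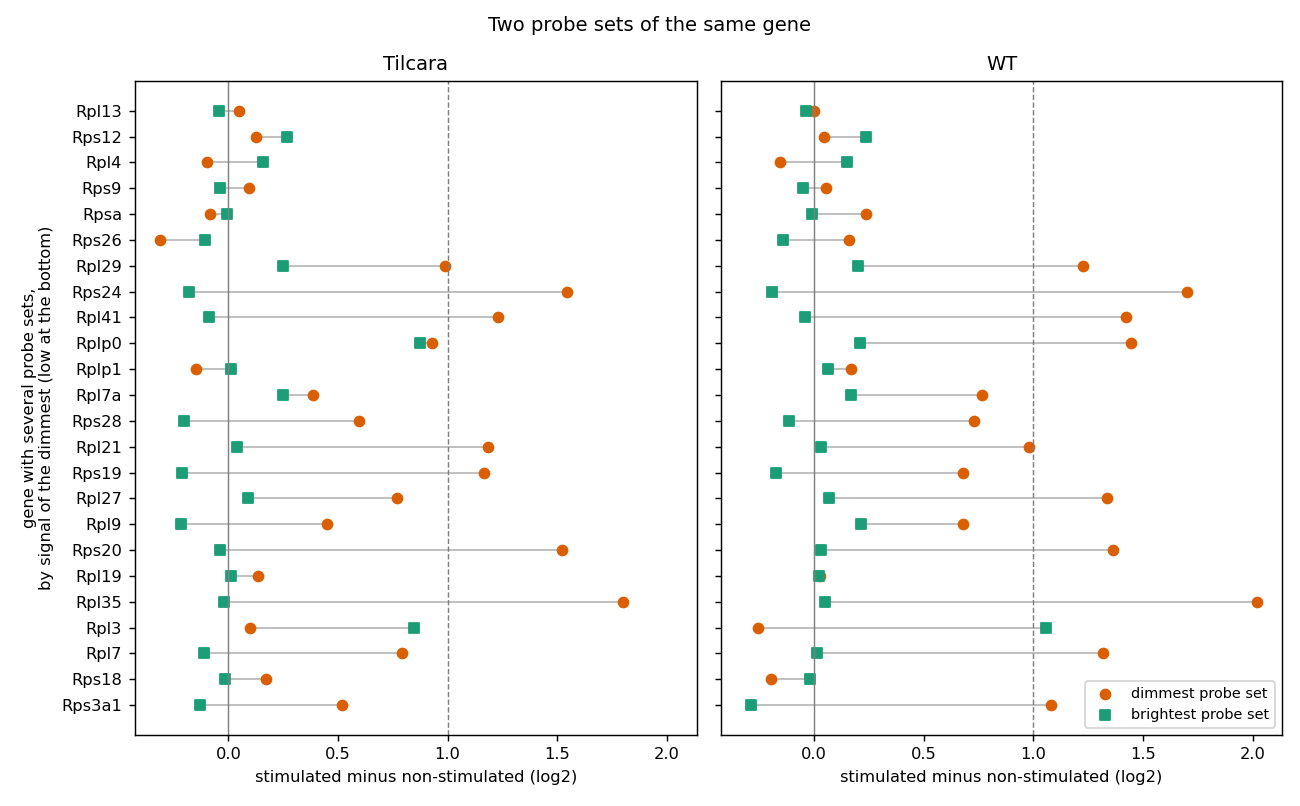
Difference between stimulated and non-stimulated cells (log2, horizontal) on the dimmest (orange circles) and the brightest (green squares) probe set of each of 24 members with more than 1 distinct set, in Tilcara cells on the left and WT cells on the right. Genes are ordered by the signal of their dimmest set, lowest at the bottom, and the dashed line marks a 2-fold increase. Green squares gather at 0, except those of Rpl3 and, in Tilcara cells, Rplp0, while orange circles reach 1.55 in Tilcara and 1.70 in WT cells for Rps24, and farther for Rpl35, whose non-stimulated signals on that set lie below the floor of 3.83.

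Between the genotypes no ribosomal protein gene passed the test. Limma called 0 members for genotype, as it did 0.0% of all genes, and 2 members, Rps4l and Rps16, had an unadjusted p below 0.05, beside 5.35% of all genes. Without stimulation the median difference of Tilcara from WT was 0.03, and 2 of 64 members differed by at least 2-fold, beside 1.08% of all genes. Rps16 was the one lower in Tilcara, with 2.49 against 3.95 in WT, and both lie near or below the floor. Rps4l was the one higher in Tilcara, with 4.82 against 3.75 in WT, where it lies below the floor. Its stimulated signals kept that order, with 5.33 in Tilcara and 4.82 in WT cells. The next largest gaps upward in Tilcara were those of Rpl39l (0.96), whose WT signal lies below the floor, Rpl39 (0.65), Rpl34 (0.64), Rpl6 (0.62) and Rpl9 (0.59). The next largest gaps downward were those of Rplp0 (−0.42), Rps23rg1 (−0.40), Rpl11 (−0.38), Rpl22 (−0.31) and Rpl17 (−0.30). In stimulated cells the median was again 0.03 and 0 members differed by 2-fold, beside 1.7% of all genes. The largest gaps among the 64 were those of Rpl26 (−0.83), Rpl27a (−0.71), Rps16 (−0.56), Rps4l (0.51), Rpl11 (−0.36), Rpl5 (−0.35), Rpl17 (0.31), Rpl37a (0.29), Rpl39l (−0.28) and Rps27l (0.25). Bright members were nearest to equality: those at 11 and above differed by at most 0.17 without and 0.09 with stimulation. The 34 other genes at 11 and above ranged from −0.23 to 0.19 without and from −0.04 to 0.40 with stimulation. Small genotype differences thus came with bright signals in other genes too.

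**Figure D4:**
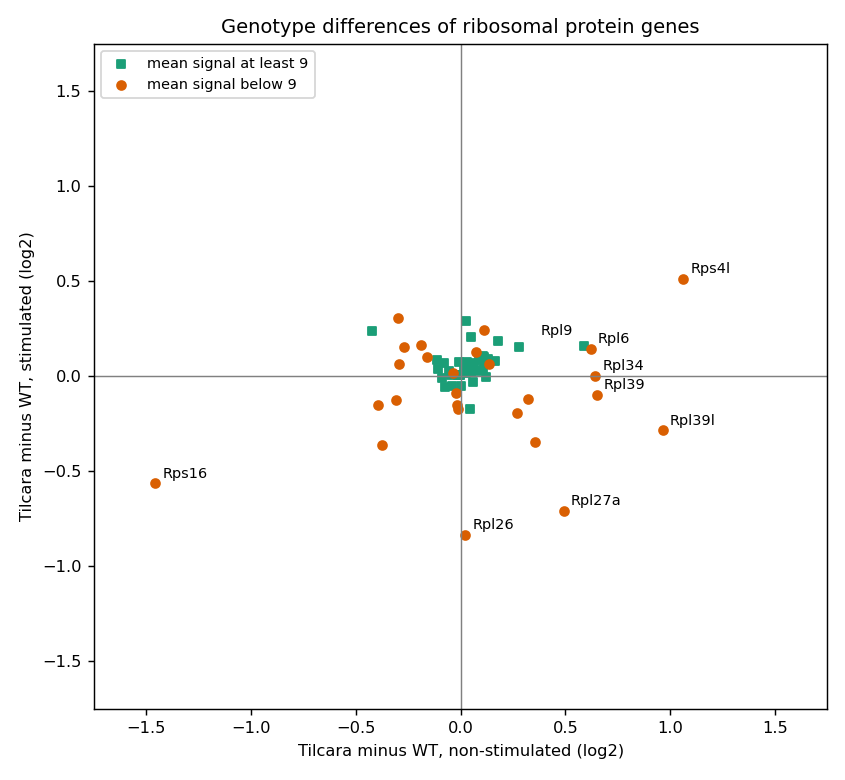
Difference between Tilcara and WT cells (log2) without stimulation (horizontal) and with stimulation (vertical) for the 64 ribosomal protein genes used. Green squares have a mean signal of at least 9 and orange circles a lower one, and genes with a difference of at least 0.55 are named. Squares crowd at 0, and Rps16 (−1.46) and Rps4l (1.06) lie farthest out without stimulation.

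Whether the response itself differed by genotype could be described but not tested, as the fit with that term leaves no residual degree of freedom. The Tilcara response minus the WT response was beyond 2-fold for 2 of 64 members, beside 3.97% of all genes, and both were negative. They were Rpl39l at −1.25 and Rpl27a at −1.20, and in each the array that lay below the floor was that of non-stimulated WT cells. Further negative values were those of Rpl26 (−0.86), Rpl39 (−0.74), Rpl5 (−0.70) and Rpl34 (−0.64). The positive side was led by Rps16 (0.89), Rplp0 (0.67), Rpl17 (0.61), Rps23 (0.42), Rpl37 (0.36) and Rpl7l1 (0.36). The median over the members was 0.00.

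Genes that serve ribosomal proteins were set beside them. Chaperones and importers, which carry new ribosomal proteins into the nucleus, had a median difference of 1.63 in Tilcara and 1.59 in WT cells, and 10 of 12 rose. Ipo5, an importin, rose by 2.70, Rpf2, which brings Rpl5 and Rpl11 into the 60S precursor, by 2.43, Grwd1, a chaperone of Rpl3, by 2.04 and Ipo7 by 1.95. Late 40S assembly factors all rose, 6 of 6 measured, among them Pno1 (2.66), Bysl (2.34), Riok2 (2.14) and Nob1 (1.77), which cuts the last precursor of 18S rRNA. Of 9 genes listed as late 60S factors 6 rose, led by Znhit6 (2.34), which is itself no late 60S factor. Next came Gnl2 (2.14), Gtpbp4 (1.99) and Eif6 (1.82), which keeps the subunits apart until the 60S is mature. Of 10 ribosome quality control genes 6 rose, led by G3bp1 (1.62), Usp10 (1.38), Abce1 (1.33), which splits ribosomes for reuse, and Zfp598 (1.04), which marks collided ribosomes. Among 11 regulators of TOP mRNAs 7 rose, led by Eif4ebp1 (2.41), Larp1 (2.001), Larp4 (1.46) and Larp1b (1.25), and 2 fell, Rps6kb2 (−1.18) and Tsc1 (−0.78), named here after their values were seen. Each of these values is a limma estimate over both genotypes. In that fit 44.8% of all genes were called, 22.0% as risen and 22.8% as fallen.

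Other mRNAs known to carry a TOP tract lay between these lists and the bright ribosomal proteins. Of 14 measured, 5 rose, beside 22.0% of all genes. They were the elongation factor subunits Eef1d (0.77) and Eef1g (0.55), the poly(A)-binding protein Pabpc1 (0.67), Eif4b (0.63) and Npm1 (0.55). The abundant Eef1a1 (0.04), Eef2 (−0.07) and Tpt1 (−0.07) did not pass the threshold. Fau, a 40S protein outside the symbol rule, differed by −0.19 in either genotype at signals between 11.53 and 11.74. In the list of Mdm2 and p53 genes, Mdm2 itself was at 0.06, Cdkn1a (p21) rose by 2.03, and Sesn1 and Mdm4 fell by 3.47 and 0.64. Proteins of the mitochondrial ribosome, which the nucleus encodes but which translate mitochondrial mRNA, gave signals from 4.26 to 9.72, and their median difference was 0.62 in Tilcara and 0.70 in WT cells. Of 71 measured, 38 rose and 1 fell, beside 22.0% of all genes that rose and 22.8% that fell. Mrpl15 (2.08), Mrps2 (1.81), Mrpl17 (1.78) and Mrpl12 (1.69) had the largest increases, and Mrps16 fell by 1.30.

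**Figure D5:**
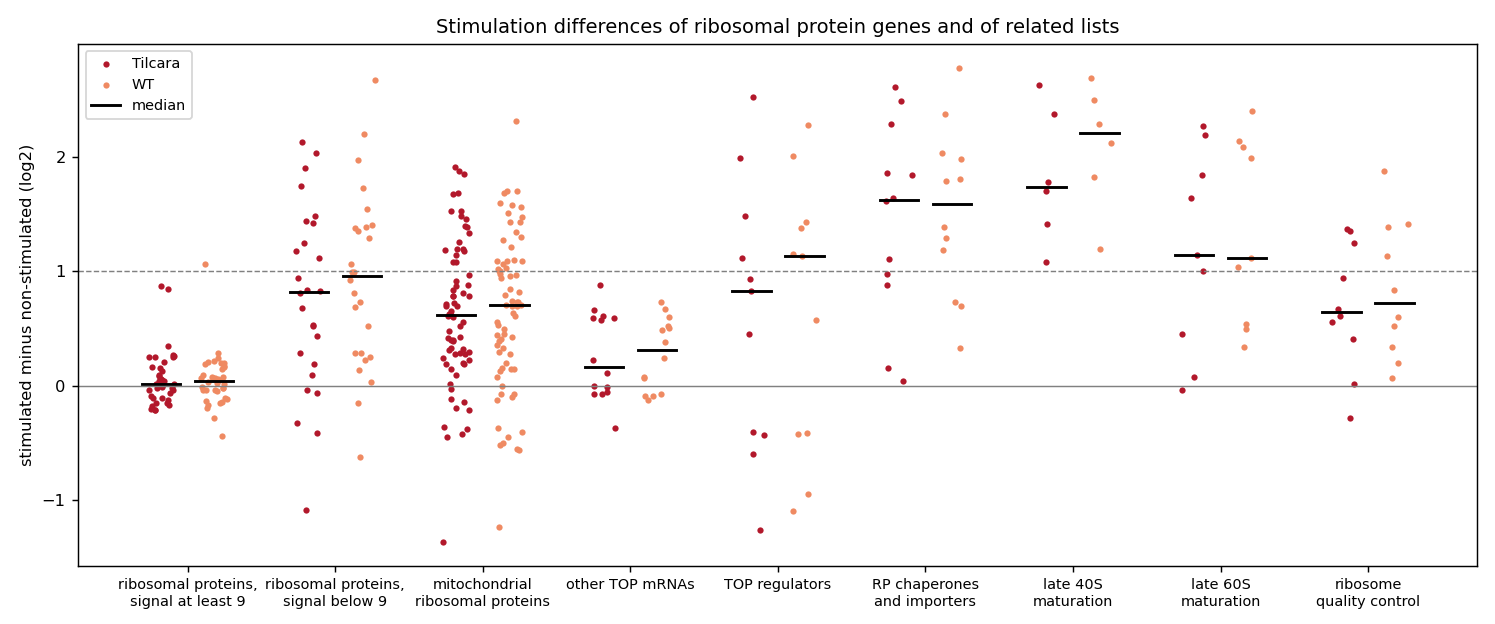
Difference between stimulated and non-stimulated cells (log2) for each gene of the bright and dim ribosomal proteins and of 7 related lists, with Tilcara left of WT in each pair. Points are genes, black bars medians, and the dashed line marks a 2-fold increase. Medians lie at 0.01 in Tilcara and 0.04 in WT cells for bright ribosomal proteins and at 1.74 in Tilcara and 2.21 in WT cells for late 40S factors.

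By position in the ribosome, no group of canonical proteins stood out by its count on the brightest sets. Of 7 proteins at the rim of the exit tunnel, 1 rose (Rpl26), and Rpl17, Rpl19, Rpl22, Rpl23a, Rpl35 and Rpl39 did not pass. Of 10 proteins of the 40S head, 1 rose (Rps15), and of 12 of the body and platform 2 rose (Rps7 and Rps23) and 1 fell (Rps27). Among 13 used genes whose human counterparts are mutated in Diamond-Blackfan anaemia, a failure of red cell production, 3 rose (Rpl11, Rpl26 and Rps7) and 1 fell (Rps27). On these sets each share of calls in either direction lies below the 44.8% of all genes called. Of all genes, 22.0% rose and 22.8% fell. The counts hung on the probe set. With the dimmest set of each gene limma also called Rpl35 at the rim and Rps19, Rps20 and Rps28 of the head. It also called Rps24 and Rpl27 there, beside 45.5% of all genes.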

How the data were processed

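RNA of sorted B cells was hybridised to 4 Affymetrix arrays, 1 per group. The authors deposited log2 signals made with RMA, per the submitters' processing notes. RMA makes the distributions of arrays alike, so a shift shared by most transcripts cannot be seen. No source used here gives their software versions or probe annotation. Symbols came from the platform annotation. All 69 gene IDs matched RefSeq. Genes whose brightest probe set exceeded 3.83 on some array were used. Differences between arrays were counted at 2-fold. limma 3.58.1 (R 4.3.3) fitted stimulation and genotype with 1 residual degree of freedom, with Benjamini-Hochberg adjustment over 12456 genes and a threshold of 0.05, and was tested on simulated data. Alternatives were median centring, cyclic loess, the mean of probe sets, no filter, subunits only, dim members only, a 1.5-fold threshold, and trended and robust variances, and, chosen after seeing the data, the dimmest probe set and canonical subunits. Members and lists were chosen with earlier results of these data known. The text names the 6 highest and 6 lowest members by signal, the 6 largest increases and decreases of each comparison, the P stalk, 5S, paralogue and non-subunit members, and up to 4 genes of each other list with the largest differences; further members are named where they carry a count. Start windows are from RefSeq.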

Additional observations from a re-analysis of the deposited data

Results flagged for a closer look

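For 2 members the stimulation difference ran in opposite directions in the genotypes, each by at least 0.25 on the log2 scale. Rpl39l differed by −0.33 in Tilcara and 0.92 in WT cells, a gap of −1.25. Rpl5 differed by −0.41 in Tilcara and 0.29 in WT cells, a gap of −0.70. With 1 array a group, neither gap was tested. The WT differences use the non-stimulated WT array, which also carried the neutrophil signal, and its part in these gaps was not tested.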

How the results depend on the processing

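Under median centring 11 members passed 2-fold after stimulation in Tilcara and 14 in WT cells. Under cyclic loess 10 did in Tilcara and 11 in WT cells, beside 11 and 12 in the values reported. Of 12453 genes used after centring, 1420 were 2-fold higher and 1848 lower in Tilcara cells, and 1696 higher and 1951 lower in WT cells. Of 12456 after loess, 1220 were higher and 1957 lower in Tilcara cells, and 1464 higher and 2081 lower in WT cells. Between genotypes without stimulation, 3 members rather than 2 passed under either scaling. Of all genes, 68 were higher and 68 lower in Tilcara after centring, and 63 higher and 72 lower after loess. The same 17 members were called by limma under both scalings, beside 45.7% of all genes after centring and 46.4% after loess. Robust variances also kept all 17. Cyclic loess turned the median difference after stimulation to −0.031 in Tilcara and −0.067 in WT cells. The mean over probe sets gave medians of 0.25 in Tilcara and 0.29 in WT cells. It added 5 limma calls, which made 22 members called, beside 45.9% of all genes. Members below the median signal had a median of 0.81 in both. Without a filter, Rpl27a and Rps4l lost their call (limma, adjusted p = 0.0719 and 0.0502). Without paralogues, or with canonical subunits alone, 1 member passed 2-fold between genotypes without stimulation, beside 1.08% of all genes. In the difference of responses 1 member passed, beside 3.97%. At 1.5-fold, 18 members passed in Tilcara (45.0% of all genes) and 19 in WT cells (48.4%) after stimulation, 7 between genotypes without (6.7%) and 2 with stimulation (8.34%), and 9 in the difference of responses (16.8%). A trended variance called 32 members, 25 up and 7 down, beside 47.7% of all genes called and 23.7% that rose. With the dimmest probe set, 17 members passed 2-fold in Tilcara cells (26.4% of all genes), with a median of 0.35, and 19 in WT cells (29.5%), with a median of 0.29, and limma called 29 (45.5%), 28 of which rose. Single members turned there: Rpl3 to −0.078 in limma and to −0.26 in WT cells, Rpl41 to 1.33, Rpl7 to 1.06, Rps19 to 0.92, Rps20 to 1.44, Rps24 to 1.62 and Rps28 to 0.66, and Rps20 to 0.72 with the mean over probe sets. The additive fit already sets the stimulated against the non-stimulated array within each genotype. No further pairing was possible because each group held 1 array, and leaving out an array was not possible for the same reason. Probe sets under the floor limit what can be said of Rps16, Rps29 and Rpl39l.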

Other observations

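Probe sets left out by the symbol rule are given by their signal. The 57 sets that carry a member's symbol together with another symbol had a median difference after stimulation of 0.68 in Tilcara and 0.65 in WT cells at signals from 6 to 9 (24 sets), where the members had 0.84 in Tilcara and 1.29 in WT cells, and of −0.04 in Tilcara and −0.05 in WT cells at 11 and above (18 sets). Of 15 sets of ribosomal protein pseudogene symbols, 8 lay below the floor, and 3 at signals from 9 to 11 had medians of −0.33 in Tilcara and −0.22 in WT cells.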
